A study of Mus musculus with 9 samples.

Results

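The comparison of 12 with 0 weeks sets 3 arrays of mouse colon organoids that had been exposed to inflammatory reagents for 12 weeks against 3 arrays of untreated organoids, labelled 0 weeks. These are 6 of the 9 arrays of the series, chosen by the titles of the samples. The 3 arrays of 60 weeks entered the estimate of the spread, the filter on dim probes and the choice of each gene's probe. Colon organoids are hollow epithelial structures grown in culture from the stem cells of the colon lining. The labels name neither the reagents nor a strain, an age or a genotype, and do not say whether the 3 replicates of a group were separate cultures or animals, so p-values measure only the spread between these samples. All groups share the tissue, and none of the arrays used here is of an untreated culture at 12 weeks, so treatment and time in culture cannot be told apart.

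The colon is lined by stem cells at the crypt base and by their descendants, the absorptive colonocytes and the mucus-producing goblet cells, with rarer hormone-producing enteroendocrine and chemosensory tuft cells. In these epithelial cells, microbial products and cytokines such as tumour necrosis factor and interleukin 1 activate the transcription factor NF-kB, which switches on chemokines that call in neutrophils, antimicrobial proteins and its own inhibitors. Interferons act through a second set of target genes, and cytokines of the interleukin 6 and interleukin 22 families act through JAK and STAT proteins.

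Each value is a log2 level relative to the 75th percentile of its array, so that 0 marks a probe as bright as that percentile. Per array, 49.16% to 52.73% of probes rose well above background, no spot was saturated (0 on every array), and the number of arrays, 3 per group, limits the precision. Of 20656 genes named on the array, 14027 were bright enough to be tested with limma, which called 5859 of them (41.8%) at an adjusted p under 0.05. Of all tested genes 19.1% were called higher and 22.7% lower, 8.5% higher by at least 2-fold and 6.27% lower by at least 2-fold, and for 54.6% the 3 arrays of each group did not overlap. These shares are the background against which every list below is read, together with a median log2 fold change of -0.06 over all tested genes. Fewer cells of a type and less RNA per cell cannot be told apart in RNA from whole organoids.

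Replicate 2 of 12 weeks stood apart. Across genes it correlated at 0.9784 and 0.9774 with replicates 1 and 3, which correlated at 0.9921 with each other, and it was closer to the 0 weeks arrays (0.9455 to 0.9479) than they were (0.9308 to 0.9368). Genes are not independent replicates. Among 2072 genes called with at least a 2-fold change, replicate 2 showed a median of 84.6% of the change seen in replicates 1 and 3, 90.8% for higher genes and 75.2% for lower ones. Without it, 3335 genes were called higher and 4067 lower, and 5609 of the 5859 calls were kept. Where leaving it out moved a list's count by over 1.5 times, the count without it is given, except for marker lists with 1 or 2 calls.

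The chemokines that attract neutrophils had the highest median change of all lists. Of 6 tested members, 5 rose and 1 fell, with a median of 5.46, or 4.41 with genes at background held to their lower bound, and the counts were the same without replicate 2. Cxcl5 read 1.59, 1.45 and 1.34 at 0 weeks and 8.72, 7.70 and 8.23 at 12 weeks, a rise of 6.76 ± 0.23 (SE, adjusted p = 5.21e-07). Cxcl1 lay at 0.37, 0.18 and -0.01 and then at 3.23, 1.99 and 2.45 (2.38 ± 0.29, adjusted p = 0.000439). The groups were far apart for both genes, and replicate 2 was the lowest of the 12 weeks arrays in each.

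Cxcl2, Cxcl3 and Ppbp were not well above background on any 0 weeks array, so only a lower bound can be given for their rise. The bound sets the mean of the bright group against the lowest signal called well above background on each array of the dim group, or the gene's own signal where that was higher. Cxcl2 was at least 23.6-fold higher, with 12 weeks levels of 0.47, -0.78 and -0.23, and Cxcl3 at least 19.8-fold, with 0.01, -0.40 and -0.92. Ppbp, a platelet-type chemokine of the same cluster, was at least 22.8-fold higher. Its neighbour Pf4 went the other way, from -0.21, -0.83 and -0.13 to -2.02, -1.25 and -2.02 (-1.37 ± 0.28, adjusted p = 0.00539). All 6 tested genes of this list lie on chromosome 5, one of 4 chromosomes whose genes stood higher as a whole at 12 weeks, as described at the end.

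Promoter sequences are shown for the chemokine and antimicrobial genes that were called higher and hold an NF-kB type motif. The motif was chosen because NF-kB is known to switch on genes of these kinds. The part of NF-kB in these changes was not tested. The sequences are the 250 bases before the transcription start from RefSeq's annotation of GRCm38.p6, in the direction of the gene. The motif GGGANTTTC (either strand) is in capitals. The genes lie at chr3:90695722-90695971 on the minus strand (S100a9), chr5:90903649-90903898 (Cxcl2), chr5:90785851-90786100 (Cxcl3) and chr5:90890995-90891244 (Cxcl1) on the plus strand, and chr6:78468875-78469124 on the minus strand (Reg3g).
S100a9: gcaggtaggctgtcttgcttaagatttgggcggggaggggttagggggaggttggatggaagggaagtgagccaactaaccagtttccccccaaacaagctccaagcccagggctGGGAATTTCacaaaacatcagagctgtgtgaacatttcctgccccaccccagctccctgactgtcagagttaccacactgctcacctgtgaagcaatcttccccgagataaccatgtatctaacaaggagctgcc
Cxcl2: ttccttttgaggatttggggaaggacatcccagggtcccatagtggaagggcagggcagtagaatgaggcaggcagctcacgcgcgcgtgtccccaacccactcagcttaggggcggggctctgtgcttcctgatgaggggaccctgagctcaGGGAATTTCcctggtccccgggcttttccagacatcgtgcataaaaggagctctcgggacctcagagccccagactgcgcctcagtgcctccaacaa
Cxcl3: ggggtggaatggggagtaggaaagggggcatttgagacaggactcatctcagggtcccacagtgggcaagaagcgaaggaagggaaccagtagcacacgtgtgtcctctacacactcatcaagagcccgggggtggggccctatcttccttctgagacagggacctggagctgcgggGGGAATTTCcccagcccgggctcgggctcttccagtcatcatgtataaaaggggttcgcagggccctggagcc
Cxcl1: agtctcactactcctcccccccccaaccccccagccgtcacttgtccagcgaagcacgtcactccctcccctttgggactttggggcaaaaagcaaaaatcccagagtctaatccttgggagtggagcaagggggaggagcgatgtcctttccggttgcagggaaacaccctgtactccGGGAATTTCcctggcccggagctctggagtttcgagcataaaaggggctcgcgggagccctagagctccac
Reg3g: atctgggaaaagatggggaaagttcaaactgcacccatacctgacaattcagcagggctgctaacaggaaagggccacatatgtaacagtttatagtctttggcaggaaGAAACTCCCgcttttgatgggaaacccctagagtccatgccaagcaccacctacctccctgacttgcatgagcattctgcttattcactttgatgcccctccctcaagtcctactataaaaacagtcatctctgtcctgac
In the chemokine promoters the same 9 letters, GGGAATTTC, begin at positions -97, -73 and -71 from the transcription start of Cxcl2, Cxcl3 and Cxcl1. In S100a9 the match is GGGAATTTC as well, at -135, and in Reg3g it is GAAACTCCC, the same motif read on the other strand, at -141. Ltb, Map3k7 and Nfkbia, also called higher, hold the motif too and are not printed.

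Over the window from 250 bases before to 50 after the start, the motif is present for 1.29% of 27025 genes with a promoter in the table. Among genes called higher by at least 2-fold it was found in 19 of 927 (2.05%), among those called lower by at least 2-fold in 6 of 686 (0.875%), and among genes not called in 73 of 6558 (1.11%). Members called higher in the chemokine, cytokine, NF-kB and antimicrobial lists held it in 8 of 44 promoters (18.2%), and the other tested members of those lists in 4 of 28 (14.3%). The motif was therefore present in both sets of list members, and the counts are too small to order them. An interferon response type motif, GAAANNGAA, was found in 8.41% of promoters of genes higher by at least 2-fold, 8.6% of those lower and 8.6% of those not called. A match describes the letters only and is not a binding site.

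**Figure D1:**
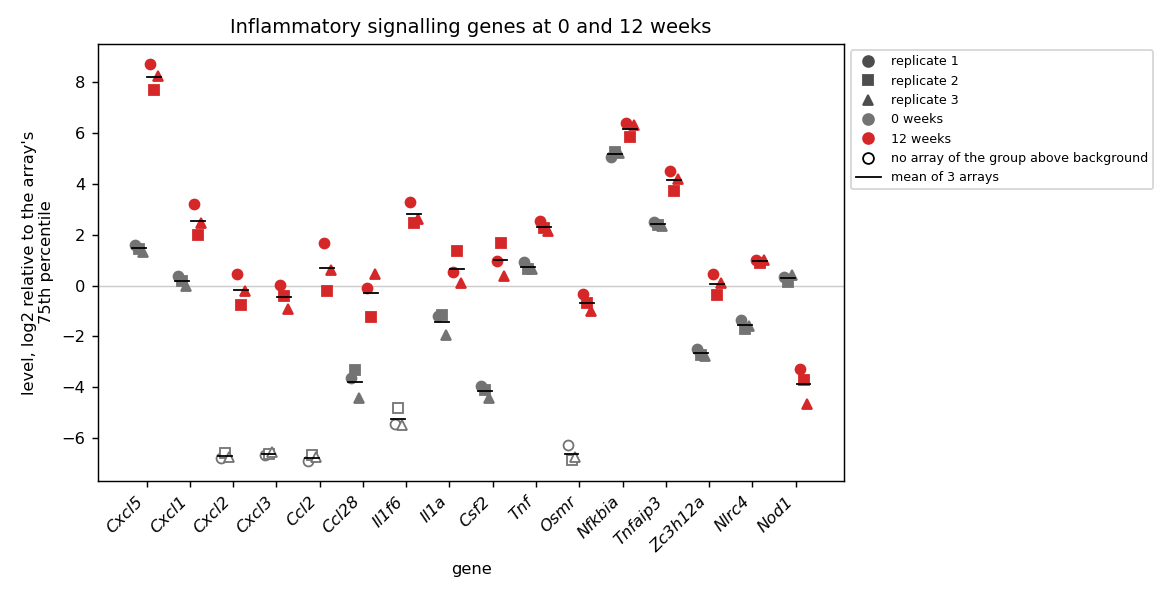
Levels of 16 chemokine, cytokine, NF-kB and pattern recognition genes (log2 relative to the array's 75th percentile, vertical axis) on each of the 3 arrays of 0 weeks (grey) and 12 weeks (red), with the mean as a line and the replicate as the marker's shape. Open markers stand for genes that no array of that group placed above background; the 12 weeks arrays lie above the 0 weeks arrays for every gene shown except Nod1, which fell by 4.16.

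Of 11 other tested chemokines, 4 rose and none fell (6 and 0 without replicate 2), with a median of 0.81, or 0.60 with Ccl2 and others at their bound. Ccl2, which attracts monocytes, was at least 42.8-fold higher, with 1.67, -0.23 and 0.60 at 12 weeks. Ccl28, an epithelial chemokine that draws antibody-producing cells to mucosae, went from -3.62, -3.34 and -4.40 to -0.10, -1.23 and 0.44 (3.49 ± 0.48, adjusted p = 0.000804). Ccl6 and Ccl9 rose by 1.55 ± 0.39 and 1.30 ± 0.24. Cxcl10, which answers to interferon, was not called (0.60 ± 0.45, adjusted p = 0.309). Of the chemokines on the array, 12 were too dim in both groups to be tested, among them Ccl20, Cxcl9 and Cxcl12.

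Among cytokines and colony-stimulating factors, 12 of 19 tested genes rose and 1 fell (13 and 2 without replicate 2), with a median of 1.45. Il1f6, which encodes interleukin 36 alpha, was not well above background at 0 weeks and lay at 3.28, 2.48 and 2.63 at 12 weeks, at least 186-fold higher. Its relative Il1f9, interleukin 36 gamma, was at least 8.74-fold higher. Il1a rose from -1.18, -1.16 and -1.96 to 0.52, 1.36 and 0.09 (2.09 ± 0.33, adjusted p = 0.00161), whereas Il1b was too dim to be tested. Csf2, the growth factor GM-CSF, went from -3.96, -4.09 and -4.41 to 0.95, 1.66 and 0.39 (5.15 ± 0.34, adjusted p = 1.57e-05). Tnf rose from 0.92, 0.67 and 0.64 to 2.55, 2.25 and 2.15 (1.58 ± 0.13, adjusted p = 6.08e-05), with no overlap and little spread.

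Lif, a cytokine of the interleukin 6 family, rose by 1.08 ± 0.14, and Tnfsf13b, which supports B cells, by 1.64 ± 0.24. Tnfsf15 rose by 2.54 ± 0.57 (adjusted p = 0.00815), with 2.44 and 2.37 in replicates 1 and 3 but 0.05 in replicate 2. The cytokine genes Il18 and Il33 were not called, Il18 only while replicate 2 was included (0.87, adjusted p = 0.000702, without it); replicate 2 lay below all 0 weeks arrays for Il18 (0.94 against 1.57 to 1.63) and well above every other array for Il33 (5.06 against 2.04 to 2.77). Il6, Tslp and Ifnb1 were too dim to be tested.

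Receptors and JAK-STAT feedback genes moved less. Of 35 tested, 10 rose and 5 fell, with a median of 0.16, and without replicate 2 the counts were 15 and 6. Osmr, the receptor for oncostatin M, started at background and was at least 16.7-fold higher on the 12 weeks arrays, with -0.34, -0.69 and -0.99. Il22ra1, the epithelial receptor for interleukin 22, rose from -1.59, -1.78 and -2.01 to 0.36, -0.62 and 0.29 (1.81 ± 0.25, adjusted p = 0.000864). The receptor-bound kinase gene Jak1 rose by 0.67 ± 0.09 and the feedback inhibitor Cish by 1.0 ± 0.13. Il13ra1, a subunit of interleukin 4 and 13 receptors, fell by 0.61 on the log2 scale, a call lost when slide row was a block (-0.51, adjusted p = 0.0576). Stat3 and Socs3 were not called, at -0.38 ± 0.14 (adjusted p = 0.0585) and -0.19 ± 0.11 (adjusted p = 0.195).

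In the NF-kB list, 13 of 27 tested genes rose and 2 fell, with a median of 0.30. The genes of the transcription factor itself were not called: Nfkb1 changed by -0.03 ± 0.12, Rela by 0.10 ± 0.16 and Relb by 0.13 ± 0.18 (0.34, adjusted p = 0.0438, without replicate 2). Inhibitors that NF-kB is known to switch on were among the genes that rose. Zc3h12a, which encodes an RNase that degrades inflammatory messenger RNAs, went from -2.49, -2.74 and -2.76 to 0.47, -0.37 and 0.10 (2.73 ± 0.20, adjusted p = 2.44e-05). Tnfaip3, the ubiquitin-editing inhibitor A20, rose from 2.50, 2.38 and 2.35 to 4.53, 3.72 and 4.18, and Nfkbia, which holds NF-kB in the cytoplasm, from 5.05, 5.24 and 5.23 to 6.40, 5.83 and 6.30. Replicate 2 was the lowest 12 weeks array for all 3 of these inhibitors. Traf3, a brake on the alternative NF-kB pathway, rose as well, while Map3k14, the kinase that drives this pathway, fell by 0.74 on the log2 scale. The call of Map3k14 ended with the deposited value table (-0.32, adjusted p = 0.2), and its second probe read -0.32. Birc2, a ubiquitin ligase acting with Traf3, also fell.

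Sensors of microbial products split. Of 34 tested genes, 14 rose and 7 fell, with a median of 0.15, and without replicate 2 the counts were 14 and 12. Nlrc4, which assembles an inflammasome on bacterial flagellin and secretion proteins, rose from -1.36, -1.72 and -1.60 to 1.03, 0.91 and 1.02 (2.55 ± 0.11, adjusted p = 1.95e-06), while its partners Naip1, Naip2, Naip5 and Naip6, near-identical copies, were not called. Without replicate 2, Naip6 and Naip2 were called lower (-1.08 and -0.31). With all arrays kept, the mean of both Naip1 probes was called higher (1.94). Casp4, an inflammatory caspase that binds lipopolysaccharide, rose by 1.49 ± 0.17, and Cd14 and Nod2 by 0.78 ± 0.13 and 0.72 ± 0.12. P2rx7, an ATP-gated channel that triggers inflammasomes, rose by 4.38 ± 0.36 by the probe used, while its 2 other probes gave 1.19 and 2.60. Tlr4, the lipopolysaccharide receptor, went from -0.12, -0.28 and -0.24 to 1.43, 0.60 and 1.29. The opposite was seen for Nod1, a sensor of bacterial cell wall, which fell from 0.32, 0.13 and 0.43 to -3.27, -3.69 and -4.64 (-4.16 ± 0.31, adjusted p = 2.77e-05).

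Antimicrobial genes rose together. Of 25 tested, 17 rose and 1 fell (20 and 1 without replicate 2), with a median of 2.04, or 1.92 at the bound. S100a9, a subunit of calprotectin, which withholds zinc and manganese from bacteria, was at least 1813-fold higher, with 6.50, 5.0 and 6.75 at 12 weeks. Its partner S100a8 was at least 81.7-fold higher and more scattered, with 2.29, -0.81 and 3.36. Lcn2, a siderophore-binding protein, read 0.24, -1.26 and -1.08 at 0 weeks and 5.18, 3.45 and 4.88 at 12 weeks, and the iron-binding Ltf rose from -2.36, -2.81 and -3.58 to 2.22, 3.63 and 2.59 (5.73 ± 0.41, adjusted p = 2.37e-05). All these genes were separated from 0 weeks on every array, but replicate 2 was the lowest 12 weeks array for the calprotectin genes and Lcn2 and the highest for Ltf.

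Several genes of the epithelial oxidases rose. Duoxa2, which lets a peroxide-producing oxidase mature, was at least 287-fold higher, with 3.47, 3.79 and 3.01, and a second probe gave 5.92 where the first gave 8.83. Nox1, the superoxide-producing oxidase of the colon, rose from -3.23, -3.38 and -3.26 to -0.27, 1.59 and -0.18, its organiser Noxo1 from 4.42, 4.17 and 4.38 to 5.34, 5.58 and 5.40, and the shared membrane subunit Cyba from 4.99, 4.93 and 5.21 to 6.96, 7.28 and 7.0 (2.04 ± 0.12, adjusted p = 9.35e-06). Nos2, which makes nitric oxide, rose by 3.34 ± 0.34. Itln1, a lectin that binds microbial sugars, was at least 219-fold higher, and its highest level was in replicate 2 (4.95 against 1.92 and 2.32). The acute-phase gene Saa3 showed the reverse, with 5.58 and 5.56 in replicates 1 and 3 and -2.0 in replicate 2. Reg3g, an antibacterial lectin, was at least 1.80-fold higher, which normexp correction left uncalled (0.51, adjusted p = 0.0645), and Reg3b was called only without replicate 2 (2.40, adjusted p = 0.000129).

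In lipid mediator genes, synthesis enzymes changed in opposite directions (5 of 15 higher, 6 lower, median -0.21). Ptgs2, the inducible cyclooxygenase, rose from 0.31, 0.30 and 0.07 to 3.96, 3.46 and 3.59 (3.44 ± 0.16, adjusted p = 2.7e-06). Alox5, which begins leukotriene synthesis, started at background and was at least 9.06-fold higher on the 12 weeks arrays. Alox5ap, the protein that hands arachidonic acid to that enzyme, fell from 1.19, 1.14 and 1.21 to -3.68, -3.34 and -3.26 (-4.61 ± 0.14, adjusted p = 3.54e-07). Ptgr1, which inactivates prostaglandins and leukotrienes, fell by 1.66 on the log2 scale, Ptgds fell, and the prostaglandin carrier Slco2a1 rose by 2.48 ± 0.36. Hpgd, a gene of prostaglandin breakdown, rose by 2.39 ± 0.83 (adjusted p = 0.048). The synthesis genes Ptgs1 and Ptges fell (-0.96 ± 0.27 and -0.43 ± 0.08).

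Interferon-stimulated genes depended on replicate 2. With all arrays 11 of 46 rose and 4 fell (median 0.34), which is near the background share, and without replicate 2 the counts were 21 and 3 (median 0.58). Replicate 2 lay below replicates 1 and 3 by a median of 0.73 (a deviation of -0.73), against 0.04 over all genes. Ifit1 read -2.68 and -2.70 in replicates 1 and 3 and -6.57 in replicate 2, and Isg15 3.62, 3.15 and 1.46 in that order; both were called only without replicate 2 (3.23, adjusted p = 0.00507, and 1.85, adjusted p = 0.0238). Oas1a, an antiviral RNA sensor, did not share this pattern and went from -3.36, -3.31 and -1.32 to 3.81, 3.02 and 3.48 (6.10 ± 0.50, adjusted p = 4.97e-05). Isg20, an exonuclease, fell from 6.75, 6.97 and 6.86 to 4.78, 5.35 and 4.62.

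In antigen presentation, 5 of 23 class I genes rose and 9 fell, with a median of -0.15. Psmb8, a catalytic subunit of the immunoproteasome, rose from -3.85, -4.52 and -4.35 to 0.61, -0.01 and 0.38 (4.56 ± 0.20, adjusted p = 2.09e-06), and Psmb10 rose by a smaller amount, whereas the third such subunit, Psmb9, was not called (-0.15 ± 0.18). H2-M3 and H2-T23, nonclassical class I molecules, fell by 1.19 and 0.49 on the log2 scale, the latter not called with quantile normalization (-0.26, adjusted p = 0.114). The class I heavy chains are near-identical copies whose probes may share signal. Of 7 class II genes, 4 rose and 1 fell, led by the protease Ctss (3.15 ± 0.37) and the invariant chain Cd74 (2.17 ± 0.46), which lost its call when slide row was a block (1.87, adjusted p = 0.0639). H2-Eb1 and H2-DMa, at 1.35 and 0.74, lost theirs in 6 of 15 and 9 of 16 alternatives.

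**Figure D2:**
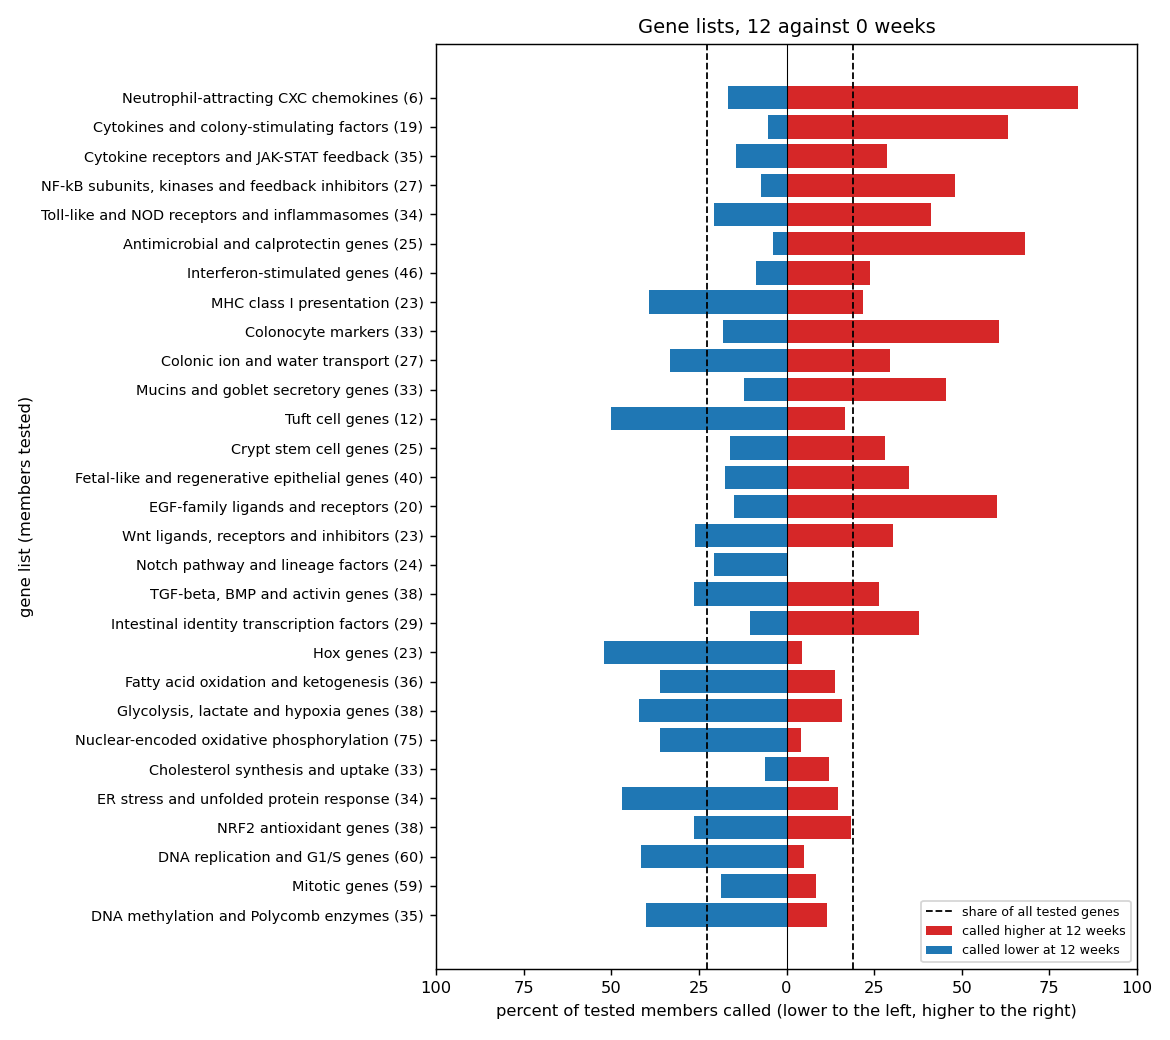
Percent of tested members called higher (red, to the right) or lower (blue, to the left) at 12 weeks for 29 gene lists, with the number of members tested in brackets. The dashed lines mark the shares of all tested genes, 19.1% higher and 22.7% lower; CXC chemokines, cytokines, antimicrobial genes, colonocyte markers and EGF-family genes reach furthest to the right, and Hox, tuft cell and ER stress genes furthest to the left.

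Markers of absorptive colonocytes rose more often than they fell: 20 of 33 rose and 6 fell, with a median of 1.13, or 1.04 at the bound (21 and 5 without replicate 2). Car4, Aqp8 and Slc16a1 were not called (-0.13 ± 0.14, 0.18 ± 0.36 and -0.18 ± 0.23), and Car2 fell (-1.29 ± 0.17). Slc26a3 and Slc9a3 were among the members too dim to be tested. Ush1c, a scaffold of brush border microvilli, rose from -1.41, -2.07 and -2.11 to 3.04, 2.80 and 3.08 (4.84 ± 0.21, adjusted p = 1.92e-06), and Cdhr5 and Slc9a2 rose as well. Slc5a8, a carrier of butyrate and lactate, was at least 64.0-fold higher. Guca2a and Guca2b, neighbouring genes on chromosome 4 for the peptides guanylin and uroguanylin that control fluid secretion, rose by 6.27 ± 1.22 and at least 13.4-fold. Their levels at 12 weeks were 4.27, -1.12 and 3.84 for Guca2a and 0.31, -2.63 and -0.66 for Guca2b, so the change in replicate 2 was the smallest. Cyp2c55, a colonic cytochrome, had the same shape, with 2.03, -1.66 and 2.07 after -4.19, -3.93 and -6.60. Car1 and Krt20 also rose, but lost their calls in 5 of 15 and 7 of 16 alternatives (adjusted p up to 0.083 and 0.0786), among them leaving out replicate 1 or 3 of 12 weeks.

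Of the colonocyte markers that fell, B4galnt2, a sugar transferase, fell by 3.74 on the log2 scale and Fabp1, a fatty acid carrier, was at least 2.59-fold lower. In the list of ion and water transport genes, 8 of 27 rose and 9 fell. Atp12a, the potassium pump of the distal colon, rose from -3.03, -3.73 and -3.65 to 1.77, 0.35 and 1.84 (4.79 ± 0.38, adjusted p = 4.5e-05), and the chloride channel gene Cftr by 1.47 ± 0.19. Kcne3 and Fxyd4, small subunits that tune a potassium channel and the sodium pump, fell by 1.32 and 2.06 on the log2 scale. Slc12a7, a potassium chloride cotransporter, fell too.

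Goblet cell and mucin genes rose in 15 of 33 cases and fell in 4, with a median of 0.68. Members too dim to be tested included Tff1, Tff2, Tff3, Zg16 and Agr3. Muc20 and Ern2 were among those that fell (-1.41 and -1.02), and the goblet factor gene Spdef was not called (-0.41 ± 0.24). Muc13, a membrane mucin, went from 3.46, 3.29 and 2.76 to 7.11, 6.73 and 7.24 (3.85 ± 0.20, adjusted p = 4.64e-06). Muc1 was at least 4.64-fold, Sytl2, a granule transport protein, at least 5.08-fold and the fucosyltransferase gene Fut4 at least 6.12-fold higher. Muc4 was highest in replicate 2 (4.53 against 2.30 and 2.65) and Fcgbp, a protein of secreted mucus, lowest there (2.99 against 5.62 and 5.84), so the list was not uniform across replicates. Agr2, which folds mucins, was brightest in replicate 2, at 0.13 against -3.85 and -3.67, and was not called (adjusted p = 0.115).

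Among enteroendocrine genes 5 of 16 rose and 1 fell (4 and 3 without replicate 2), and 20 were too dim to be tested, Chga among them. The median was 0.25 and turned to -0.03 without a filter on dim probes. The hormone genes Pyy and Insl5 were not called (0.01 ± 0.72 and -0.54 ± 0.40), nor were Neurog3, Nkx2-2 and Syp. Nts, the gut peptide neurotensin, was not well above background at 0 weeks and reached 6.08, 6.81 and 6.24, at least 2216.5-fold higher. Ghrl, which encodes ghrelin, rose from -3.80, -3.80 and -4.05 to -0.09, -0.31 and -0.15 (3.70 ± 0.10, adjusted p = 2.25e-07), and Sct, which encodes secretin, from -3.80, -3.68 and -3.71 to -0.56, 0.06 and -0.08. Tuft cell genes went down in 6 of 12 cases and up in 2, with a median of -0.49. Many others on the array were too dim to be tested, among them Pou2f3, Trpm5, Gnat3, Avil and Il25. Dclk1, a kinase used as a tuft cell marker, fell from -2.53, -2.75 and -2.45 to -3.64, -3.44 and -3.57, and Hmx2 fell by 3.12 on the log2 scale. Alox5 and Alox5ap, already described, are members of this list too.

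**Figure D3:**
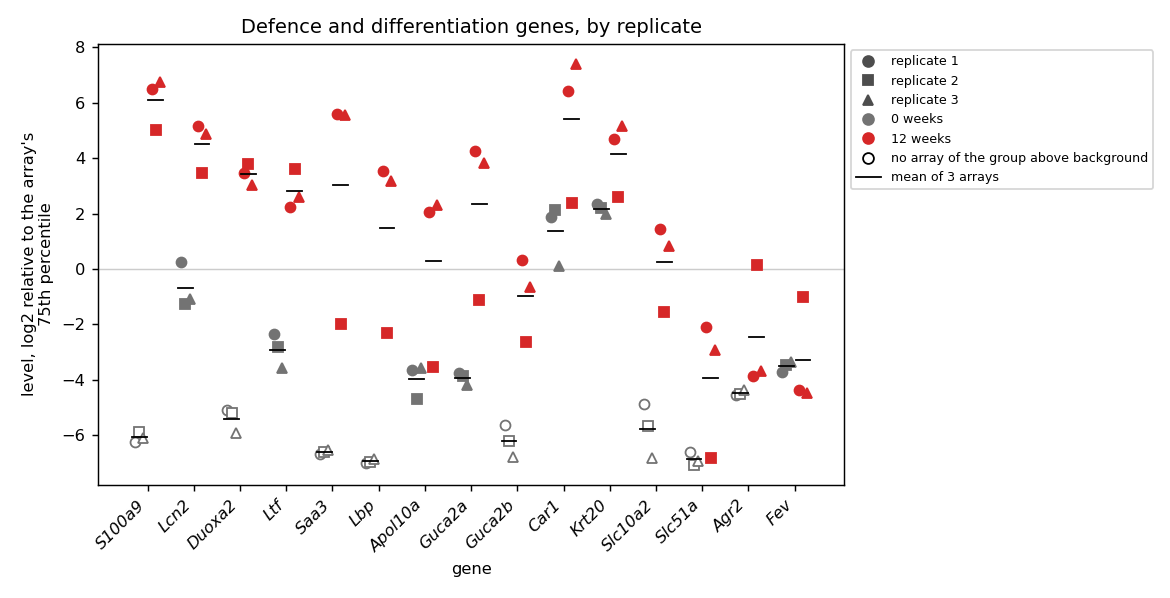
Levels of 15 defence and differentiation genes (log2 relative to the array's 75th percentile, vertical axis) on the 3 arrays of 0 weeks (grey) and of 12 weeks (red); squares mark replicate 2, lines the means and open markers groups with no array well above background. Replicate 2 of 12 weeks sits far below replicates 1 and 3 for Saa3, Lbp, Apol10a, Guca2a, Car1 and Slc51a and far above them for Agr2 and Fev.

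Stem cell genes were mixed (7 of 25 higher, 4 lower, median -0.12, which turned to 0.09 without replicate 1 of 12 weeks). Sp5, a transcription factor gene that answers to Wnt signals, started at background and was at least 37.6-fold higher, with 1.29, -0.11 and 0.30. Ascl2, a master factor of crypt stem cells, was at least 5.54-fold higher. Lgr5, the receptor that marks these cells, went the other way, from 2.0, 1.72 and 1.91 to -1.72, 1.43 and -0.13, a scatter in which its call (-2.01 ± 0.65, adjusted p = 0.0372) ended in 7 of 15 alternatives. Its change came to -1.23 without replicate 1 of 12 weeks. Without replicate 2, 8 stem cell genes were called higher and 8 lower.

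Genes of fetal-like and regenerating epithelium did not move as 1 group, with 14 of 40 higher, 7 lower and a median of 0.05 that turned to -0.03 without replicate 2 (15 higher, 13 lower). Anxa10, an annexin of foregut-type epithelium, was at least 42.8-fold higher, and the wound keratin gene Krt6a at least 10.9-fold. Sprr2h was at least 61.8-fold higher, but Sprr2 genes are near-identical copies whose probes may share signal. Ly6d fell from 8.33, 8.36 and 8.55 to 5.30, 5.94 and 5.78 (-2.74 ± 0.16, adjusted p = 9.12e-06). Spp1, the secreted protein osteopontin, fell from 2.59, 2.68 and 2.80 to -3.43, -1.11 and -2.69. The markers Ly6a, Clu and Anxa1 were not called, at -0.16 ± 0.15, 0.05 ± 0.13 and -0.22 ± 0.09. Without replicate 2, Ly6a and Anxa1 were called lower (-0.35 and -0.28), and with quantile normalization Clu was called higher (0.44). Of 18 keratin genes 8 rose and 2 fell, one of them Krt14 (-1.89 ± 0.20).

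Transcription factors of intestinal identity rose more often than the background: 11 of 29 rose and 3 fell, with a median of 0.56 (15 and 4, median 0.90, without replicate 2). Hnf4a rose from 4.57, 4.59 and 4.59 to 5.91, 5.76 and 6.0 (1.31 ± 0.11, adjusted p = 5.17e-05), and Hnf4g from -2.62, -2.65 and -2.57 to 0.33, -1.12 and 0.25. Both encode nuclear receptors of mature enterocytes. Isx, which limits vitamin A uptake, rose by 2.20 ± 0.15, and Gata4, normally a factor of the small intestine, from -4.54, -4.81 and -4.05 to -1.96, -2.31 and -1.81. Cdx2, the master factor of the intestine, rose by 0.82 ± 0.20 (adjusted p = 0.0125). Gata6 fell by 0.55 on the log2 scale, a call that ended in 5 of 15 alternatives. Of the 11 risen factors, 4 lie on chromosomes 4, 5, 12 or 14, as do 8 of the 29 tested. Of all 2677 genes called higher, 917 lie there, a similar share to that of the risen factors.

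Small intestinal markers were tested for 7 genes, of which 4 rose and none fell. Slc10a2, the ileal bile acid carrier, was at least 31.5-fold higher (1.44, -1.55 and 0.82) and Apob, the backbone of lipoprotein particles, at least 7.32-fold (-0.61, -3.46 and -1.53). Ada, an enzyme of adenosine breakdown, rose from 0.73, 0.68 and 0.73 to 2.85, 4.69 and 2.96. Nr1h4, the bile acid receptor, is a member of the list of intestinal identity factors and not of this list. It rose by 2.91 ± 0.81, with 1.73, -1.61 and 1.96, a call that ended in 6 of 15 alternatives. Defensin genes of Paneth cells, Lyz1, Apoa1 and Fabp6 were too dim in both groups to be tested. The median of the small intestinal list, 2.44 over 7 genes, was -0.075 over 18 genes without a filter on dim probes. It was -0.11 over the 3 genes above background on all 9 arrays.

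Hox genes, which record position along the body axis, fell in 12 of 23 cases and rose in 1, with a median of -0.74. Hoxa4, Hoxa5 and Hoxa7, neighbours on chromosome 6, fell from -1.88, -1.98 and -2.29 to -3.75, -3.26 and -4.02, from -0.22, -0.43 and -0.39 to -2.22, -1.72 and -2.19, and from 1.78, 1.56 and 1.79 to -0.96, -1.41 and -1.23. Hoxc6 sank to background on the 12 weeks arrays, at least 20.2-fold lower. Hoxb2 alone rose, from -3.11, -3.33 and -3.05 to 0.19, 0.23 and 0.11 (3.34 ± 0.10, adjusted p = 2.63e-07). The posterior genes Hoxa13, Hoxb13 and Hoxd13 were too dim to be tested.

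**Figure D4:**
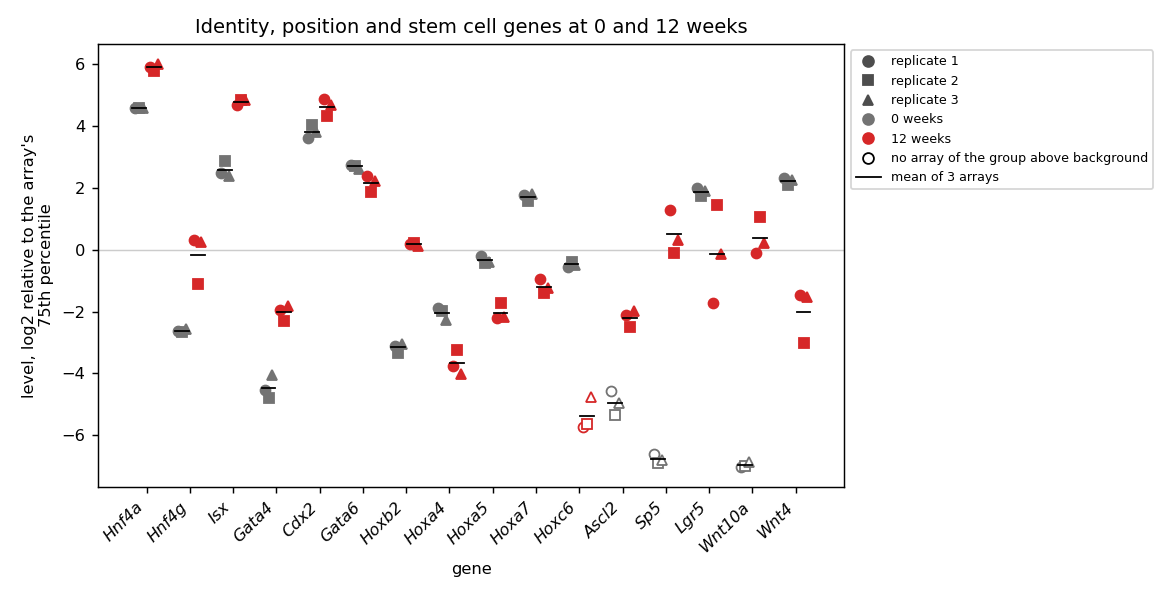
Levels of 16 identity, position, stem cell and Wnt genes (log2 relative to the array's 75th percentile, vertical axis) on the 3 arrays of 0 weeks (grey) and 12 weeks (red), with means as lines and open markers where no array of the group was well above background. Sp5, Ascl2 and Wnt10a went from background to measured levels, while Hoxa4, Hoxa5, Hoxa7, Hoxc6 and Wnt4 fell on all 3 arrays.

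In the EGF-family list, which holds ligands, receptors and inhibitors of their signal, 12 of 20 genes rose and 3 fell. The median was 0.51 (14 and 4 called without replicate 2). Of the ligands, Btc, betacellulin, rose from -1.80, -1.89 and -1.70 to 0.39, 0.23 and 0.52 (2.18 ± 0.10, adjusted p = 3.02e-06), Epgn by 2.29 ± 0.25, Ereg by 1.71 ± 0.27 and Areg by 0.85 ± 0.16. The ligand gene Egf was at least 1.61-fold lower, and Tgfa was not called (-0.18 ± 0.12). Nrg1, neuregulin, started at background and was at least 5.16-fold higher. Egfr, the receptor, rose by 0.94 ± 0.16, and averaging all its probes ended the call (0.48, adjusted p = 0.117). Errfi1, an inhibitor of the receptor, rose, and inhibitors of its signal split. Spry1 fell from 4.43, 4.14 and 4.27 to 2.74, 2.58 and 2.52. Spry4 rose by 1.74 ± 0.21, a call lost in 1 of 15 alternatives (0.24, adjusted p = 0.207). Spry2 was not called (0.24 ± 0.16), and Dusp5 and Dusp6 rose by 0.93 and 0.43. Btc, Epgn, Ereg and Areg are all on chromosome 5.

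Wnt ligands moved in opposite directions. Wnt10a started at background and was at least 35.1-fold higher, with -0.10, 1.04 and 0.23, while Wnt4 fell from 2.30, 2.10 and 2.25 to -1.46, -3.02 and -1.54 (-4.22 ± 0.59, adjusted p = 0.000887), a value its second probe repeated (-4.24). The receptor gene Fzd3 was at least 4.84-fold higher and Fzd2 fell by 1.95 on the log2 scale. Of the whole Wnt list, 7 of 23 rose and 6 fell with a median of 0.23 that turned negative under 3 filters or value sources (lowest -0.10). In the Notch list none of 24 rose and 5 fell. Dll1, a ligand, fell from 0.63, 0.28 and 0.28 to -1.41, -1.95 and -1.75 (-2.10 ± 0.16, adjusted p = 3.64e-05). Rbpj and Notch3, the nuclear effector and a receptor, lost their calls in 6 and 7 of 16 alternatives.

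In the TGF-beta and BMP list 10 of 38 rose and 10 fell. Smad6 and Smad7, inhibitors of these pathways, both fell, the former from -0.28, -0.24 and -0.33 to -4.70, -6.11 and -4.45 (-4.81 ± 0.37, adjusted p = 3.57e-05) and the latter by 1.0. Smad6 was well above background on only 2 of the 3 arrays of 12 weeks, and normexp put its change at -2.64. The ligand genes Bmp7 and Bmp4 fell, by 2.93 and 1.05 on the log2 scale, while Bmp3, a ligand that opposes them, rose from -1.62, -1.64 and -1.35 to 1.37, 1.39 and 1.21 (2.86 ± 0.16, adjusted p = 6.75e-06). Inha, the inhibin subunit that antagonises activin, was at least 5.81-fold higher. Of the BMP target genes, Id2 fell by 1.97, Id3 rose by 0.96 ± 0.20 (adjusted p = 0.00657) and Id1 was not called (-0.18 ± 0.20). Of the 10 risen members, 8 lie on chromosomes 4, 5, 12 or 14. Of the 38 tested members 11 lie there, and of all 2677 genes called higher 917.

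Junction genes were called higher in 5 of 21 cases and lower in 3 (9 and 3 without replicate 2). Cldn2, which forms a leaky cation pore, fell from 2.19, 1.80 and 1.85 to -1.72, -0.49 and -0.96 (-3.01 ± 0.41, adjusted p = 0.000741). Cgn, a scaffold of tight junctions, rose by 1.25 ± 0.17 and Cldn9 by 1.51 ± 0.16.

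Genes of energy metabolism fell more often than they rose. In glycolysis and hypoxia genes 16 of 38 fell and 6 rose (median -0.36). Car9, a carbonic anhydrase induced by low oxygen, fell from 7.66, 7.72 and 7.82 to 5.72, 7.10 and 6.14, with replicate 2 nearest to 0 weeks, and Aldoc had the same shape (7.86, 8.12 and 8.13, then 5.83, 7.53 and 6.23). Epas1, the oxygen-regulated factor HIF-2 alpha, fell by 1.34 ± 0.09 by the probe used, with -0.39 and -0.36 by its other probes. Against this trend Slc16a3, which exports lactate, rose from -3.56, -3.29 and -3.26 to 5.01, 6.25 and 5.62 (9.0 ± 0.30, adjusted p = 4.38e-07), and a second probe gave 9.27. Ldhb, a lactate dehydrogenase, rose by 2.97 ± 0.15, and Adm, the vasodilator adrenomedullin, by 4.09 ± 0.46.

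Of 36 genes of fatty acid oxidation 13 fell and 5 rose (median -0.25). Acaa2 and Eci2, enzymes of the mitochondrial pathway, fell by 1.33 and 1.28 on the log2 scale. Ehhadh, a peroxisomal enzyme, started at background and was at least 14-fold higher, with -0.82, -0.94 and -1.04. Decr1 rose by 10.40 by the probe used but by 2.56 by its second probe, so its size is uncertain. Of 75 nuclear genes of oxidative phosphorylation 27 fell and 3 rose (median -0.24, 40 and 3 without replicate 2), mostly by small amounts: Ndufa6, a subunit of complex I, fell by 1.07 and Atp5c1, of the ATP synthase, by 0.64. With quantile normalization 14 fell and 11 rose (median -0.07), and leaving out single arrays gave between 10 and 40 lower calls.

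Cholesterol genes split along replicate 2. With all arrays 4 of 33 rose and 2 fell, and without replicate 2 the counts were 4 and 20. Replicate 2 lay above replicates 1 and 3 by a median of 0.78. Scd1, a fatty acid desaturase, rose from -2.62, -2.53 and -2.69 to 0.27, 1.68 and 0.21.

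Genes of protein folding in the endoplasmic reticulum fell in 16 of 34 cases and rose in 5 (median -0.37, 20 and 8 without replicate 2). The chaperone gene Hsp90b1 fell from 7.13, 7.25 and 7.14 to 5.64, 6.34 and 5.77, and the folding enzyme gene Pdia6 by 1.13, or 0.48 by its other probe. Xbp1, a transcription factor of the stress response, fell by 0.58 and Ddit3, which promotes death under lasting stress, by 1.28. Of 29 immediate early and heat shock genes 11 rose and 3 fell (median 0.23). Hspa1a rose from -0.98, -0.90 and -1.31 to 1.94, 2.43 and 2.67 (3.41 ± 0.19, adjusted p = 6.23e-06), Hsph1 by 1.78 ± 0.24, and Hspb1 started at background and was at least 71.3-fold higher, while the heat shock genes Bag3 and Hsp90ab1 fell by 0.59 and 0.34. Hsp90ab1 turned to 0.0759 (adjusted p = 0.427) with quantile normalization.

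Antioxidant and detoxification genes changed in both directions. Of 38 NRF2 targets 7 rose and 10 fell (7 and 16 without replicate 2), with a median of -0.15 that turned to 0.03 with quantile normalization. Aldh3a1, an aldehyde dehydrogenase, fell from 8.09, 7.87 and 8.23 to 4.39, 5.68 and 4.51 (-3.21 ± 0.32, adjusted p = 0.000134), and the carbonyl reductase gene Cbr1 by 2.37. Slc7a11, which imports cystine for glutathione synthesis, rose from -2.53, -2.91 and -3.02 to 1.69, 0.42 and 1.31. Nqo1 and Gclc, classical targets, were not called (-0.29 ± 0.25 and -0.37 ± 0.14), Nqo1 being called only without replicate 2 (-0.57). Among cytochrome, conjugation and esterase genes 13 of 55 rose and 23 fell (20 and 24 without replicate 2). Cyp2b10, the standard target of the receptor CAR, rose from 0.45, 0.09 and 0.01 to 4.10, 3.88 and 3.69 (3.71 ± 0.17, adjusted p = 2.28e-06). Gstm2 and Gstm1 fell by 2.23 and 1.52 on the log2 scale, with the caution that this family's copies are alike in sequence, and the esterase gene Ces2a fell from 0.78, 0.90 and 0.68 to -4.49, -5.85 and -3.30.

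Some cell cycle inhibitor genes rose from background. Cdkn2a and Cdkn2b, adjacent on chromosome 4, read 2.53, 2.70 and 2.28 and 2.81, 2.97 and 2.60 at 12 weeks, with no 0 weeks array above background, at least 152-fold and 185-fold higher. The 3 arrays of 12 weeks lay close together for both, and second probes gave log2 changes of 5.21 and 7.39. Their relative Cdkn2c, also on chromosome 4, fell from 0.86, 0.87 and 0.77 to -0.54, -0.28 and -0.28. Over the list of inhibitors and p53 targets 13 of 40 rose and 13 fell, and Cdkn1a, the main p53 target among inhibitors, was not called (-0.21 ± 0.16). Of 60 DNA replication genes 25 fell and 3 rose, with a median of -0.25. Dtl and Rfc4 fell by 1.06 and 0.82 on the log2 scale, while Ccne1, the cyclin that starts replication, rose from 1.57, 1.76 and 1.74 to 3.25, 3.04 and 3.14. Mitotic genes fell in 11 of 59 cases and rose in 5, and the share that fell was below the 22.7% of all tested genes. Without replicate 2 the counts were 17 and 2, where 4067 of all 14027 genes were called lower. Mki67 was not called (-0.03 ± 0.17).

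Enzymes of DNA methylation and Polycomb repression fell in 14 of 35 cases and rose in 4, with a median of -0.31. Dnmt3a, which sets new methylation, fell from 2.26, 2.14 and 1.98 to 0.99, 1.12 and 0.78 (-1.16 ± 0.12, adjusted p = 0.000216), and Dnmt1, which maintains it, from 1.65, 1.49 and 1.37 to 0.70, 0.94 and 1.01. The Polycomb subunit gene Cbx2 fell by 1.0 on the log2 scale, and Ezh2, the methyltransferase of the complex, was not called (0.02 ± 0.10).

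In protease and inhibitor genes 21 of 57 rose and 11 fell. Serpinb7, a serine protease inhibitor of epithelia, fell from 5.18, 5.14 and 5.18 to -0.13, -2.57 and 0.24 (-5.99 ± 0.73, adjusted p = 0.000432), and the transmembrane protease gene Tmprss11c sank to background on the 12 weeks arrays, at least 103-fold lower. Adam28 was at least 37.6-fold higher, with 0.46, 0.53 and 0.50. Timp3, an inhibitor of metalloproteinases held in the matrix, rose from -2.86, -2.90 and -3.31 to 1.94, 0.29 and 2.01.

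Several of the largest changes fell outside the lists. Among genes measured in both groups, F2r, the thrombin receptor, rose from -2.92, -2.86 and -3.63 to 3.31, 3.85 and 2.99 (6.52 ± 0.33, adjusted p = 4.05e-06), and Ddah1, which breaks down an inhibitor of nitric oxide synthase, from -4.25, -4.46 and -4.49 to 1.92, 1.87 and 1.92 (6.31 ± 0.14, adjusted p = 6.24e-08). Ptprb, a receptor phosphatase known from endothelium, rose by 5.60 ± 0.24. The placental prolactin-family genes Prl2c1 and Prl2c5 rose by 5.89 ± 0.32 and 5.75 ± 0.31 and Prl2a1 was at least 685-fold higher, and the Prl2c copies cannot be told apart with certainty. Dhh, a hedgehog ligand, was at background at 0 weeks and lay at 2.46, 3.11 and 2.33, at least 166-fold higher. Tmem30b rose by 5.89 by the probe used and by 1.53 by its second probe.

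Of the largest falls, Gzmm, a granzyme, went from 4.88, 4.58 and 4.86 to -0.95, -0.08 and -0.68 (-5.34 ± 0.21, adjusted p = 9.88e-07). Cavin2, a coat protein of caveolae, fell from 5.27, 5.32 and 5.36 to 0.06, 1.93 and 0.48, and Cyp26b1, which degrades retinoic acid, from 0.91, 1.29 and 0.91 to -4.08, -2.98 and -3.05. Plscr4 fell by 4.56 on the log2 scale. For Zfp467, Ramp1 and Rbms3 the other probes disagreed on the size: -5.23 against -5.06 to -1.48, -4.67 against -4.11 to -0.44, and -4.51 against -1.73. Khdc1a, Megf6, Adgra1, Vsir and Rab3il1 were at background on all 12 weeks arrays and at least 71.9-fold, 36.4-fold, 21.2-fold, 15.7-fold and 11.5-fold lower. In all, 262 genes were above background on every 12 weeks array and on no 0 weeks array by any probe, and 115 the other way round.

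The epithelial character of the samples was checked with markers. Of 13 epithelial markers, all tested, 2 rose (Vil1 by 0.52 and Cdx2 by 0.82) and none fell; Epcam, Cdh1 and Krt8 changed by -0.28, 0.27 and 0.06 without a call. With quantile normalization Cdh1 and Krt8 were called higher (0.36 and 0.46). Of 19 leukocyte markers on the array 12 were too dim in both groups, including Ptprc, Cd3g, Itgax, Tyrobp and Spi1, and of the 7 tested none rose and 1 fell (Cd4 by 0.38, a call lost in 9 of 16 alternatives). Of 18 fibroblast and smooth muscle markers 12 were too dim, including Dcn, Col3a1 and Pdgfra, and of the 6 tested 2 rose and 1 fell. Vim, an intermediate filament of mesenchymal and of migrating epithelial cells, was at least 4.73-fold higher, with -2.71, -1.86 and -2.92, Fbln1, a matrix protein, at least 1.45-fold higher and Col1a1 at least 3.15-fold lower. The call of Fbln1 was lost with normexp (0.34, adjusted p = 0.0936). Of 15 endothelial, neural and glial markers 8 were tested, none rose and 1 fell.

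Genes in which replicate 2 departed most from replicates 1 and 3, where these lay within 0.5 of each other, are given as a description. Among 12487 such genes 789 departed by at least 1 on the log2 scale, 423 upward and 366 downward. Among the genes lower in replicate 2, Lbp, which hands lipopolysaccharide to its receptor, read 3.53, -2.30 and 3.16, Saa1 3.08, -1.19 and 3.30 and Apol10a 2.07, -3.53 and 2.30. The bile acid exporter subunits Slc51b and Slc51a were at or near the 0 weeks level in replicate 2 (-6.41 and -6.82, against -1.95 and -2.09 in replicate 1). Higher in replicate 2 were Agr2, already given, Fev, a factor of enteroendocrine cells (-1.0 against -4.35 and -4.49), Ooep, Lix1l and Svop. The calls of Saa1, Apol10a, Hyal5 and Wfdc17 ended in 9 of 15, 8 of 15, 7 of 14 and 5 of 14 alternatives, among them leaving out replicate 1 or 3 of 12 weeks.

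Gene levels also shifted by chromosome. The median change was 0.26 over 921 tested genes of chromosome 4, 0.23 over 462 of chromosome 12, 0.20 over 481 of chromosome 14 and 0.17 over 874 of chromosome 5, and between -0.22 (X) and -0.03 (2 and 19) on every other chromosome. On chromosome 4, 37.2% of genes were called higher and 11.5% lower, and on chromosome 13, 14.6% and 29.5%. The 3 arrays of 12 weeks gave like values: 0.28, 0.24 and 0.26 on chromosome 4, 0.25, 0.25 and 0.18 on chromosome 12, 0.14, 0.18 and 0.18 on chromosome 14 and 0.21, 0.16 and 0.13 on chromosome 5. No 0 weeks array differed from the group's mean by over 0.03 on any chromosome. The order was the same with quantile normalization, with 0.28, 0.27, 0.23 and 0.22, and the 4 medians were 0.26, 0.21, 0.19 and 0.16 without replicate 2.

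**Figure D5:**
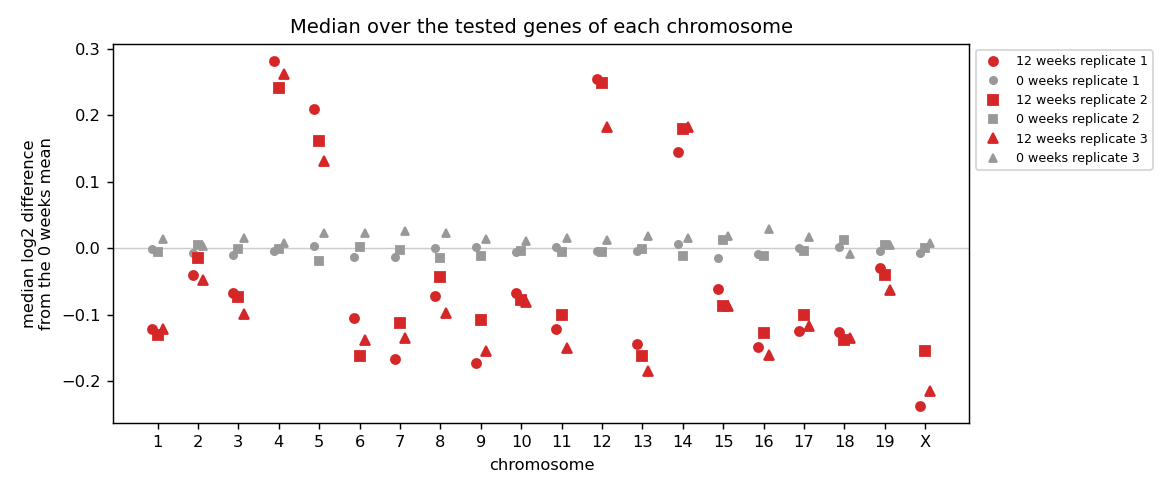
Median log2 difference from the 0 weeks mean over the tested genes of each chromosome (vertical axis), for each array of 12 weeks (red) and 0 weeks (grey), with the replicate as the marker's shape. Chromosomes 4, 5, 12 and 14 lie above 0 on all 3 arrays of 12 weeks and all others below it, while the 0 weeks arrays stay near 0.

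The lists were therefore also described outside chromosomes 4, 5, 12 and 14, a choice made after these values were seen. There the median over all genes was -0.11. It was 2.30 for antimicrobial genes, 1.26 for cytokines, 0.98 for colonocyte markers, 0.42 for EGF-family genes, 0.18 for the NF-kB list and 0.14 for intestinal transcription factors, against 2.04, 1.45, 1.13, 0.51, 0.30 and 0.56 with all chromosomes. It was -0.34 for DNA replication genes and -0.27 for oxidative phosphorylation. The median changed sign for 4 lists: the Wnt list (0.23 to -0.07), lipid mediator genes (-0.21 to 0.06), cell cycle inhibitors and p53 targets (0.13 to -0.04) and the Notch list (0.01 to -0.09). It shrank from 0.34 to 0.14 for interferon-stimulated genes and from 2.44 to 1.14 for small intestinal markers. The part of this shift in the changes of single genes was not tested.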

How the data were processed

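RNA was labelled with Cy3 and hybridised to 1-colour Agilent mouse arrays, 3 for each of 0, 12 and 60 weeks. The deposited scanner files hold background-subtracted intensity (gProcessedSignal) from Feature Extraction 10.7.3.1, per the file headers. The deposited value table holds a linear signal for 42530 of 55681 probes, each array divided by 1 constant at 0.993 to 0.9992 of its 75th percentile, found by setting it against the scanner values. Its column medians were 0.0668, 0.0719 and 0.0705 at 0 weeks and 0.0619, 0.0681 and 0.0733 at 12 weeks.

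Levels are log2 intensity minus the 75th percentile of all non-control probes on that array. Spots marked as outliers were left out, 135 to 163 per array. Symbols came from RefSeq accessions: 27229 probes had 1 symbol, 0 had several and 28452 had none. A probe was kept if well above background on at least 2 of 3 arrays of a group, and the brightest probe stood for its gene. limma 3.58.1 in R 4.3.3 was fitted to all 9 arrays, with p-values adjusted by Benjamini-Hochberg over all genes tested. SE is that of the fit, n = 3 per group. The script was tested on simulated data.

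The members and gene lists were chosen with earlier results of these data known. Genes named were the largest changes, called list members and genes departing in replicate 2, by a rule that gave 282 genes. A further 74 were chosen after their values were seen. Alternatives changed the scaling, the background correction, the filter, the probe rule, the arrays fitted, the block and the value source. The normexp alternative used the median spot intensity, since the files used here hold no mean. All 6 arrays were on slide 1 and scan 1, with replicates 2 and 3 of 12 weeks in the other row of the slide. Some genes are not reported here.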

Additional observations from a re-analysis of the deposited data

How the results depend on the processing

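Of 356 named genes 316 were called, and 269 of these were called in every one of the 16 alternatives in which they were tested. Of the called genes named, only Hsp90ab1 turned direction in any of them, from -0.336 to 0.0759 with quantile normalization (adjusted p = 0.427), and the cause was not tested. Against 5859 calls (2677 higher, 3182 lower), the count was 5901 with the percentile over bright probes, 5997 with quantile normalization, 4971 with the deposited value table, 5237 with probes above background on all 9 arrays, 4949 without a filter, 5885 with the mean of a gene's probes, 5209 with only the 6 arrays and 4471 when slide row was a block. Leaving out 1 array gave 4227 to 7402 calls, 1994 to 3335 higher and 2233 to 4067 lower, with 1058 to 1386 higher and 766 to 1142 lower by at least 2-fold. With normexp 758 genes were higher and 541 lower by at least 2-fold, against 1192 and 880, and with probes above background on all 9 arrays 683 were higher. The cause was not tested for normexp, and the stricter filter tests fewer genes. In the deposited table, which holds fewer probes, 10 antimicrobial genes, 6 cytokines and 1 neutrophil chemokine were called higher.

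Deviations of same-numbered 0 and 12 weeks arrays from their group means correlated at 0.0925, -0.000392 and 0.195. With 3 arrays per group, these values cannot tell whether replicate numbers pair the samples. With the replicate block 5796 genes were called, 2653 higher and 3143 lower. The number of arrays limits precision, and genes near background have only a bound.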
